A study of Mus musculus with 16 samples.

Results

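Tropomyosins are coiled-coil proteins that lie along the actin filament, and in muscle they hold the troponin complex and set the access of myosin to actin. Mammals have 4 tropomyosin genes, Tpm1, Tpm2, Tpm3 and Tpm4, all of which are described here. They were chosen by name as a family, with earlier results of the same data in view. The p-values given for them therefore place them among all genes or events tested, or against the spread of the mice, and are not independent evidence of a change. The count table held 56953 genes, and the 3 splicing tables together held 48 distinct events of the 4 genes among 57891. Of these events 29 belonged to Tpm1, 9 to Tpm2, 9 to Tpm3 and 1 to Tpm4, and 33 were listed in all 3 tables.

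The data came from left ventricles of Bl6J mice, males and females, 4 mice in each of 4 groups and 16 libraries in all. RBM20 is a splicing factor of heart and skeletal muscle, P635L is a missense mutation of its gene, and TNPO3 is a nuclear import receptor for proteins rich in arginine and serine. WT mice received an AAV9 control virus (WT Ctr) or a virus carrying Tnpo3 cDNA (WT Tnpo3), and mice homozygous for RBM20 P635L received the same 2 viruses (P635L Ctr and P635L Tnpo3). Every mouse therefore carried AAV9 at a dose of 1e12 vector genomes, given by tail vein at 4 weeks of age, and the hearts were taken 12 weeks later, at 16 weeks. The control construct, pCAG-iCre-T2A-eGFP, encodes Cre recombinase and a green fluorescent protein under the broadly active CAG promoter, so Ctr mice were not free of a transgene. The promoter that drives Tnpo3 is not given in the sources used here. Tissue of the whole left ventricle was used, so a difference per cell and a difference in the number of cells of a type cannot be told apart.

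Tropomyosin genes share an exon plan in which the sixth coding exon exists in versions 6a and 6b, of which a transcript takes one, and the last coding exon in versions lettered from 9a. In striated muscle Tpm1 is known to use 2b, 6b, 9a and 9b, while the smooth muscle form of Tpm1 takes exon 2a in place of 2b. The striated form of Tpm2, the β-tropomyosin of skeletal muscle, uses 6b and 9a, and the form of smooth muscle and other cells uses 6a and 9d. Tpm1 is the main tropomyosin of the rodent heart. Tpm3 and Tpm4 are best known for their cytoskeletal forms, and Tpm3 also has a form of slow skeletal muscle.

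The results turn on 2 choices within Tpm2, so the exons concerned are shown. Their sequences come from transcripts Tpm2-202 and Tpm2-203 of GENCODE M21 (GRCm38), and all 4 exons have there the coordinates that the deposited count table lists (chromosome 4, minus strand, GRCm39 per the submitters' processing notes). In the splicing tables the 9a exon is 1 base longer at its 3′ end than in Tpm2-202, which starts at 43514712, and the coding part is not touched by this. Exon 6a lay at chr4:43519003-43519078 and exon 6b at chr4:43518644-43518719, and both had 76 bases. In the splicing tables the last exon ran over chr4:43514711-43516003 in the 9a form and over chr4:43514711-43514861 in the 9d form. Of the last exon only the coding part is printed, which had 83 bases in either form. All 4 stretches are coding, written 5′ to 3′, with capitals where 6a and 6b, or 9a and 9d, differ at the same position.
Tpm2 exon 6a: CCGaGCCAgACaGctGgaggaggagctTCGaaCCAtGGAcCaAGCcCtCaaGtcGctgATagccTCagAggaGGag
Tpm2 exon 6b: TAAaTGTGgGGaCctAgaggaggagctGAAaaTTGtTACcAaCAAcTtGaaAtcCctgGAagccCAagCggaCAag
Tpm2 exon 9a, coding part: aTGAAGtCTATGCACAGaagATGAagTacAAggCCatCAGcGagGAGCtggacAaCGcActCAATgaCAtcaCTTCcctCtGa
Tpm2 exon 9d, coding part: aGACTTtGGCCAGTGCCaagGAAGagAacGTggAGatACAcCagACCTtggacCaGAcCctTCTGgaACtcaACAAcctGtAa
Exons 6a and 6b of Tpm2 were identical at 41 of 76 positions (53.9%), and the coding parts of 9a and 9d at 35 of 83 (42.2%). Exon 6b of Tpm2 was closer to its counterparts in other genes than to its own alternative, with identity at 56 of 76 positions (73.7%) to exon 6b of Tpm1 and at 58 of 76 (76.3%) to that of Tpm3. For exon 6a the identity was 64.5% with Tpm1 and 61.8% with Tpm3. The versions thus differed at enough positions for reads to be assigned to one of them, and a swap of 6a for 6b, or of 9a for 9d, keeps the coding length.

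Depth and labels were looked at before the members. Total counts ranged from 28493249 to 85922669 per library. In 3 libraries 1 gene, ENSMUSG00000119584, took 19.96 to 22.65% of the counts (WT Ctr 2, WT Ctr 4 and WT Tnpo3 4). Xist exceeded the Y-linked genes in 3 libraries, all of them WT (WT Ctr 4, WT Tnpo3 2 and WT Tnpo3 4). No P635L library showed this, so by these genes sex was not balanced between the genotypes. Gene fits without these 3 libraries are given at the end, and the part of sex in the splicing differences was not tested. Tnpo3 itself stood at 41.6 to 49.4 counts per 1000000 counts (CPM) in the 8 Ctr libraries and at 231.3 to 722.5 CPM in the 8 Tnpo3 libraries, so every library fell on the side its label gives. The 8 cardiomyocyte markers summed to 55803 CPM or more in every library, so the marker check did not go against the labelled tissue. The sum of the 8 was 55803 to 59650 CPM in P635L Ctr and 77979 to 95475 CPM in WT Ctr. Of the 8, 4 were called lower in P635L Ctr than in WT Ctr (edgeR), where 14.2% of all genes tested were called.

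Tpm1, the α-tropomyosin of the heart, was by far the most abundant of the 4 genes and was lower in P635L hearts that received Tnpo3 than in WT Ctr hearts. Its level in WT Ctr libraries 1 to 4 was 14030, 14236, 12862 and 9926 CPM. In P635L Ctr it was 9353, 10432, 8970 and 10341 CPM. In P635L Tnpo3 it was 8295, 8507, 8593 and 8524 CPM, and in WT Tnpo3 11212, 11620, 11337 and 9614 CPM. The 4 P635L Tnpo3 libraries were below all 12 others, while P635L Ctr and WT Ctr overlapped through the low library WT Ctr 4. P635L Tnpo3 against WT Ctr gave a log2 fold change of −0.59 ± 0.13 (SE, n = 4 per group), with an adjusted p of 0.0144 by edgeR's quasi-likelihood test. P635L Ctr against WT Ctr gave −0.38 ± 0.13 with an adjusted p of 0.0504, just outside the threshold of 0.05. The authors' deposited table lists an adjusted p of 0.043 for the same comparison, and DESeq2 run here gave 0.0093. Leaving out WT Ctr 4 moved the value to −0.49 (adjusted p = 0.00707 by edgeR), and leaving out WT Tnpo3 4 brought the adjusted p to 0.0314. In P635L Tnpo3 against WT Ctr the adjusted p was 0.0614 without WT Ctr 2, 0.0519 without P635L Tnpo3 4 and 0.0515 when only the 8 libraries compared were fitted.

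Reads of Tpm2, β-tropomyosin, rose 4.08-fold in P635L Ctr and 2.88-fold in P635L Tnpo3 hearts over WT Ctr (ratios of mean CPM). By edgeR no other member was called in the first of these comparisons, and DESeq2 also called Tpm1 there. The 9a exon has 1292 bases in Tpm2-202 and the 9d exon 151 in Tpm2-203. A move from 9d to 9a gives more exon for reads to fall on, and CPM do not correct for this. The part of exon length in the rise was not tested. The WT Ctr libraries had 40.2, 40.2, 63.4 and 46.5 CPM, and the WT Tnpo3 libraries 41.5, 50.1, 69.8 and 48.8 CPM. P635L Ctr had 230.7, 185.3, 208.3 and 151.3 CPM. P635L Tnpo3 had 127.1, 83.1, 111.4 and 226.9 CPM. All 8 P635L libraries lay above all 8 WT libraries, and within the P635L Tnpo3 group the fourth library stood above the other 3, at the level of the P635L Ctr group. The same library also had the lowest Tnpo3 level of its group, 233.8 CPM against 358.7, 722.5 and 542.5 CPM in the other 3, and the part of this difference in the result was not tested. The log2 fold change was 2.03 ± 0.26 (SE, n = 4 per group, adjusted p = 6.34e-05) for the P635L Ctr group over WT Ctr, and 1.53 ± 0.26 (adjusted p = 0.00303) in P635L Tnpo3 against WT Ctr, both by edgeR. These 2 comparisons share the WT Ctr libraries. The second call was lost without the 3 libraries rich in ENSMUSG00000119584, with a log2 fold change of 1.44 and an adjusted p of 0.103. That fit lacks WT Ctr 2 and WT Ctr 4, so it also had fewer reference libraries. Between the viruses in P635L hearts the value was −0.50 ± 0.25 (adjusted p = 0.309), and without P635L Tnpo3 4 it was −0.86 with an adjusted p of 0.0311.

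Tpm3 and Tpm4 were called in no comparison of the fit to all 16 libraries. Tpm3 ranged from 88.1 to 129.8 CPM in WT Ctr, 88.8 to 116.3 in WT Tnpo3, 78.2 to 98.5 in P635L Ctr and 102.5 to 118.5 in P635L Tnpo3. The Tnpo3 and Ctr libraries of P635L hearts did not overlap for Tpm3, and the log2 difference was 0.28 ± 0.12 (SE, n = 4 per group, edgeR adjusted p = 0.227). Among the alternatives run it passed, at an adjusted p of 0.0350, where the 8 libraries compared were fitted alone, and in no other. Tpm4 ranged from 116.5 to 167.6 CPM over the 16 libraries, and its log2 fold changes in the 4 pairwise comparisons ran from −0.06 to 0.06. Tpm1 overlaps 2 genes and Tpm4 another 2 on the opposite strand, with at most 474 counts beside 291020 or more for Tpm1 and at most 121 beside 3817 or more for Tpm4.

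**Figure D1:**
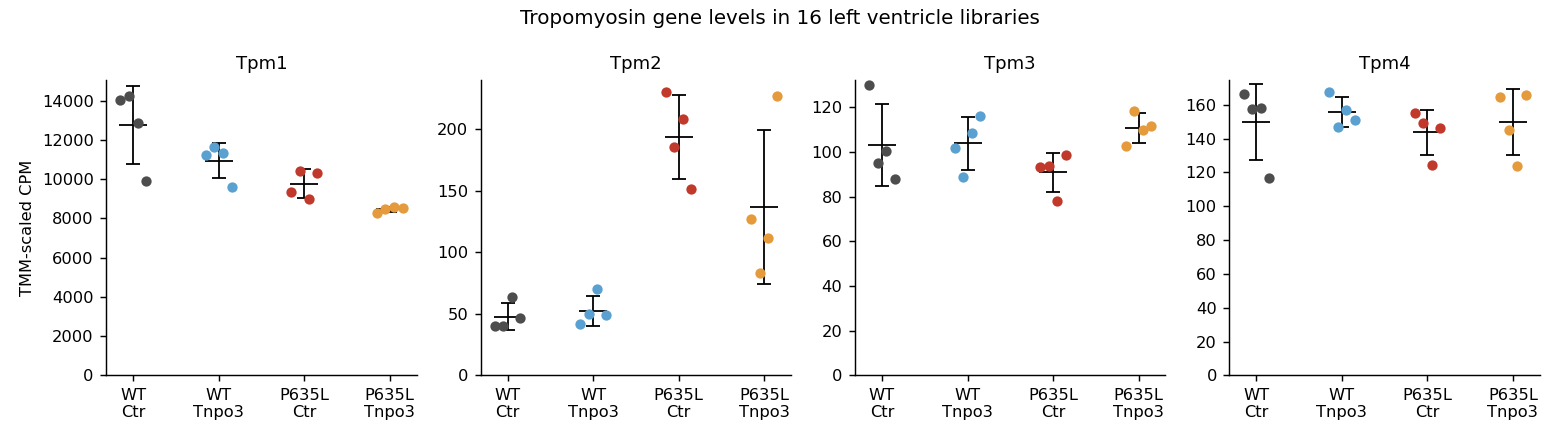
Level of each tropomyosin gene in TMM-scaled CPM (vertical axis, linear, own scale per panel) in the 4 groups (horizontal axis). Points are the 4 libraries of a group and the black bar with whiskers is the mean ± SD; the 8 P635L libraries have 83.1 to 230.7 CPM of Tpm2 and the 8 WT libraries 40.2 to 69.8.

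Counted over the family, edgeR called 1 of 4 genes and DESeq2 2 of 4 in P635L Ctr against WT Ctr, where edgeR called 14.2% of all 18662 genes tested. In P635L Tnpo3 against WT Ctr both tools called 2 of 4, against 3.07% of all genes by edgeR. In P635L Tnpo3 against P635L Ctr none was called by edgeR or DESeq2, 1 had an unadjusted edgeR p under 0.05, and 3.88% of all genes were called. In WT Tnpo3 against WT Ctr none of the 4 was called by edgeR or DESeq2 and none had an unadjusted p under 0.05; the 1 gene called there among all (0.00536%) was Tnpo3, named after its value was seen. The interaction test, which asks whether the virus effect differs between genotypes, was passed by none of the 4 genes (edgeR and DESeq2, none with an unadjusted edgeR p under 0.05, 0.504% of all genes called). For Tpm2 this interaction was −0.64 ± 0.36 (SE, log2, adjusted p = 0.486), so a difference of that size was not resolved with 4 mice per group.

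Per kilobase of annotated exon, the order of the genes changed in P635L hearts below the leading Tpm1. In WT Ctr, Tpm1 had 1968 ± 306 CPM per kb (SD, n = 4), Tpm4 35.1 ± 5.3, Tpm3 17.0 ± 3.0 and Tpm2 16.4 ± 3.8, and the last 2 did not differ beyond their spread. In P635L Ctr, Tpm2 came next after Tpm1 with 66.7 ± 11.7 CPM per kb, above Tpm4 with 33.7 ± 3.1 and Tpm3 with 14.9 ± 1.5. In P635L Tnpo3, Tpm2 had 47.1 ± 21.5 CPM per kb and overlapped Tpm4, which had 35.1 ± 4.6. Tpm2 made up 0.617, 0.611, 1.06 and 1.01% of the summed CPM per kb of the 4 genes in WT Ctr, and 5.04, 3.70, 4.78 and 3.06% in P635L Ctr. The 2 groups did not overlap, and the share rose from 0.823 ± 0.243% to 4.15 ± 0.93% (SD, n = 4 each, exact permutation test, two-sided, p = 0.0286, the smallest that 4 against 4 allows). It was 3.33 ± 1.44% in P635L Tnpo3, which overlapped P635L Ctr (exact permutation p = 0.371), and 1.03 ± 0.22% in WT Tnpo3. The sum of all 4 genes was 2037 ± 312 CPM per kb in WT Ctr and 1622 ± 106 in P635L Ctr, and these overlapped (exact permutation p = 0.0857). It was 1408 ± 31 in P635L Tnpo3, below every library of WT Ctr and of P635L Ctr.

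**Figure D2:**
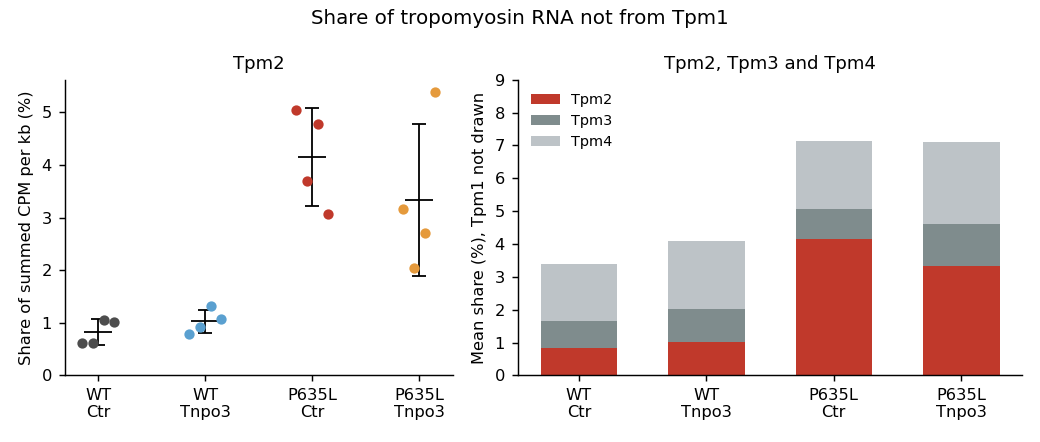
Share of the summed CPM per kb of the 4 tropomyosin genes, in percent (vertical axes), by group (horizontal axes). Left, Tpm2 per library with mean ± SD; right, mean shares of Tpm2, Tpm3 and Tpm4 stacked from 0, with the remainder, Tpm1, not drawn. Tpm2 goes from 0.823% in WT Ctr to 4.15% in P635L Ctr. The gene length used is fixed, so shares are not scaled to the form of Tpm2 in use.

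Splicing was read from the authors' rMATS tables, each of which sets 1 group against WT Ctr and gives junction reads and an inclusion level between 0 and 1 for 4 libraries per group. The tables do not say which listed library is which mouse, so libraries are given by their listed position. To be called, an event needed an rMATS false discovery rate (FDR) under 0.05, inclusion levels that differed by 0.1 or more, and 10 or more junction reads on average in each group. P635L Ctr against WT Ctr had 4 called events of 37 member events tested (10.8%), where 2.5% of all 34601 events were called. P635L Tnpo3 against WT Ctr had 4 of 39 (10.3%), where 2.1% of all events were called, and the 4 events were the same. WT Tnpo3 against WT Ctr had 0 of 37 by rMATS, by edgeR on junction reads and at an unadjusted edgeR p under 0.05, with 0.927% of all events called by rMATS. In that comparison inclusion of Tpm2 exon 6b had an rMATS FDR of 0.0136, but its difference of 0.014 was under 0.1. All 4 called events belonged to Tpm2. Of these, 3 describe exons 6a and 6b and share reads, so the 4 events amount to 2 choices: 6a or 6b, and 9a or 9d.

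At the sixth exon Tpm2 took 6a almost alone in WT hearts and both versions in P635L hearts. As a mutually exclusive pair, the share of 6a was 0.959, 0.876, 0.985 and 0.974 in the listed WT Ctr libraries and 0.965, 0.849, 0.976 and 0.957 in WT Tnpo3. In P635L Ctr it was 0.468, 0.423, 0.334 and 0.465, and in P635L Tnpo3 0.541, 0.589, 0.518 and 0.464. No P635L library reached the lowest WT library. The difference from WT Ctr was −0.526 in P635L Ctr and −0.421 in P635L Tnpo3 (n = 4 per group; both listed at an rMATS FDR of 0 in the authors' deposited table, edgeR adjusted p = 0.00163 and 0.00626, exact permutation p = 0.0286 each). The single-exon events, which share part of these junctions, moved the same way. Inclusion of 6b between 6a and the next exon went from 0.0255 ± 0.0320 in WT Ctr to 0.491 ± 0.070 in P635L Ctr and 0.378 ± 0.054 in P635L Tnpo3 (SD, n = 4 each). Inclusion of 6a ahead of 6b went from 0.905 ± 0.074 to 0.348 ± 0.049 and 0.437 ± 0.055.

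At the end of the message the 9a exon, rare in WT hearts, became the major one. Its inclusion level was 0.090, 0.117, 0.022 and 0.058 in WT Ctr and 0.059, 0.175, 0.020 and 0.047 in WT Tnpo3. It was 0.696, 0.695, 0.808 and 0.689 in P635L Ctr and 0.599, 0.593, 0.663 and 0.652 in P635L Tnpo3. The P635L libraries were all above 0.59 and the WT libraries all below 0.18. The difference from WT Ctr was 0.650 in P635L Ctr and 0.555 in P635L Tnpo3 (n = 4 per group; listed FDR of 0, edgeR adjusted p = 0.000693 and 0.00218, exact permutation p = 0.0286 each). In both WT groups the library listed second had the most of the striated-type exons, with 0.073 and 0.104 for 6b and 0.117 and 0.175 for 9a, and it still lay far below the P635L libraries.

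**Figure D3:**
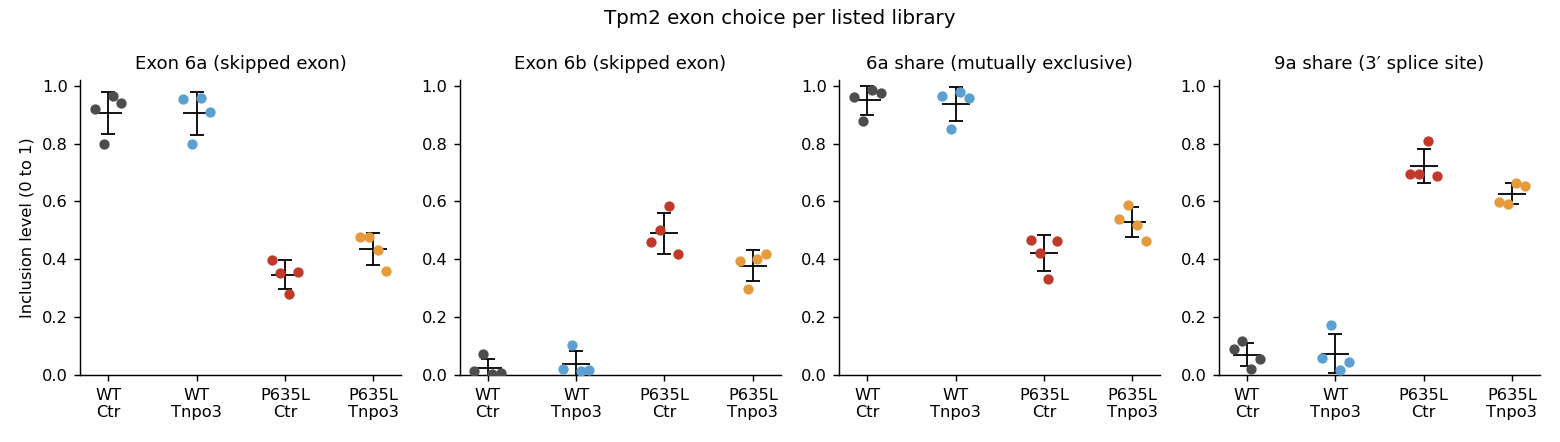
Inclusion level of the 4 called Tpm2 events (vertical axes, 0 to 1) in the 4 groups (horizontal axes). Points are the 4 listed libraries, bars the mean ± SD. The exon 9a level is at most 0.175 in the 8 WT libraries and at least 0.593 in the 8 P635L libraries.

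With the Tnpo3 virus all 4 Tpm2 events stood closer to the WT level on average, but none was called between P635L Tnpo3 and P635L Ctr. The share of 6a differed by 0.106, inclusion of 6b by −0.112, inclusion of 6a by 0.0887 and inclusion of 9a by −0.0953 (n = 4 per group). For 9a the groups did not overlap (0.593 to 0.663 against 0.689 to 0.808, exact permutation p = 0.0286), and for the exon 6 events they overlapped (exact permutation p = 0.0571 to 0.0857). In edgeR fitted to the junction reads of 18059 events, the adjusted p of the 4 events was 0.595 to 0.676, and by limma it was 0.212 to 0.345. Of 23 member events tested 0 were called, 6 had an unadjusted edgeR p under 0.05, and 0.0332% of all events were called, so this test called few events of any gene. An interaction test over the 16 libraries, added after the data had been seen, called 0 of 26 member events (edgeR, smallest adjusted p = 0.865, 2 with an unadjusted p under 0.05), where 0.0159% of all events were called.

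Read as amounts and not as shares, the gain of Tpm2 RNA in P635L hearts lay in the 6b and 9a forms. Junction reads of each form were divided by the listed junction reads of the library and are given per 1000000 of these (RPM). The listed junction reads were summed over the 32579 events of unique coordinates held in all 3 splicing tables. A read shared by several events counts more than once in that sum. They were not scaled for length. The inferred ratio of inclusion to skipping length was 2.0 for 9a against 9d and 1.0 for 6a against 6b. The RPM of 9a and of 9d can thus be compared between groups but not with each other. The 6b form had 0.746, 1.85, 0.427 and 0.683 RPM in WT Ctr and 46.9, 35.8, 44.0 and 28.5 in P635L Ctr. Its mean rose 41.9-fold, from 0.926 ± 0.630 to 38.8 ± 8.3 (SD, n = 4 each, exact permutation p = 0.0286). The 9a form rose 42.6-fold, from 1.39 ± 0.65 to 59.03 ± 13.33 (exact permutation p = 0.0286). In WT Ctr these forms had few reads, 16, 36, 11 and 14 for 6b and 30, 43, 16 and 27 for 9a. The size of both folds is therefore imprecise. The 6a form had 17.5, 13.0, 27.3 and 26.1 RPM in WT Ctr and 41.1, 26.3, 22.1 and 24.8 in P635L Ctr, with overlap (21.001 ± 6.865 and 28.6 ± 8.5, exact permutation p = 0.257). The 9d form, at 9.99 ± 3.00 and 11.4 ± 3.5, also overlapped (exact permutation p = 0.571). The exons of the form of smooth muscle and other cells overlapped between the groups, while the striated exons were read far more often in every P635L Ctr library than in any WT Ctr library.

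In P635L Tnpo3 the striated exons of Tpm2 were unevenly spread over the mice, with 1 library above the other 3. The 6b form had 20.3, 14.4, 16.7 and 42.4 RPM, and the 9a form 33.2, 24.7, 32.7 and 70.4. The first 3 listed libraries lay below all P635L Ctr libraries for both forms, and the fourth lay within their range. The means were 23.5 ± 12.9 and 40.2 ± 20.5 (SD, n = 4), which overlapped P635L Ctr (exact permutation p = 0.0857 and 0.171). The 6a form, at 24.8 ± 8.3, and the 9d form, at 11.7 ± 4.9, overlapped the other groups, and the fourth listed library, at 18.8 RPM of the 9d form, was the highest of all 16 for that form.

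**Figure D4:**
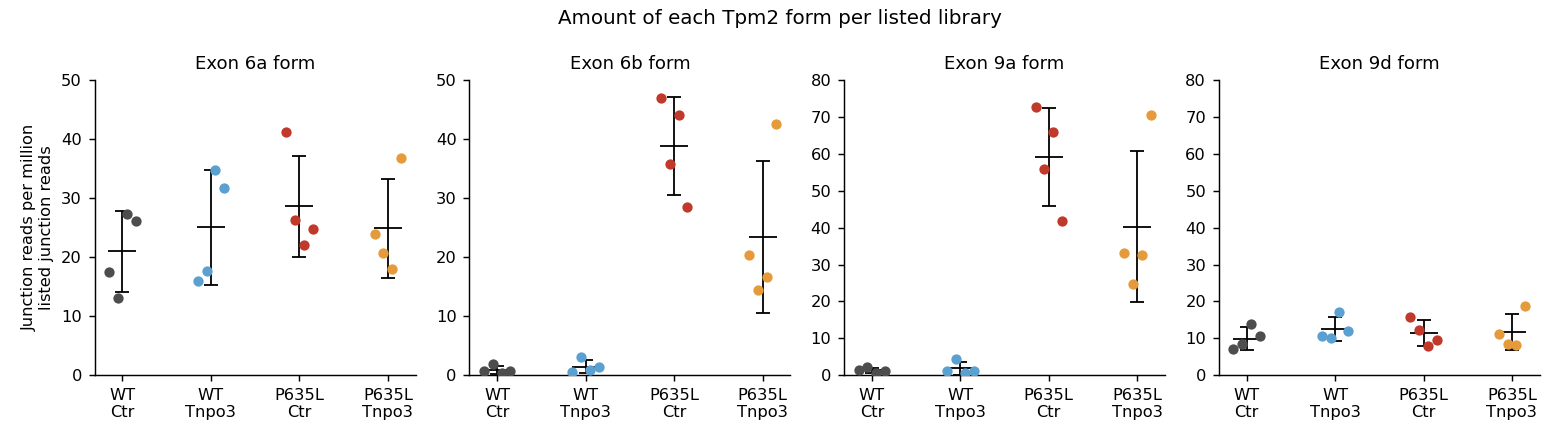
Junction reads of the 4 Tpm2 forms per 1000000 listed junction reads (vertical axes, 0 to 50 for 6a and 6b, 0 to 80 for 9a and 9d) in the 4 groups (horizontal axes). Points are listed libraries and bars the mean ± SD. The 6b and 9a forms are at most 4.35 in the 8 WT libraries and reach 38.8 and 59.03 on average in P635L Ctr, while 6a and 9d overlap between all groups. Reads are not scaled for length, so 9a and 9d are not comparable with each other.

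Tpm1 showed the reverse situation: almost no choice, at great depth. Of its 20 events in the P635L Ctr table, 13 had a mean inclusion of at least 0.99 in both groups, 3 had at most 0.01, and 0 were called in any comparison. The Tpm1 event with the most reads, inclusion of exon 4 (chr9:66941158-66941275), was listed at 1.0 in every library, with 2 to 18 skipping reads beside 141083 to 472126 inclusion reads. Exon 6a of Tpm1 (chr9:66939748-66939823), chosen after its values were seen, was close to silent, with 26 to 78 inclusion reads per library against 66458 to 219726 reads that go to 6b. Cardiac Tpm1 was therefore already in the 6b form that Tpm2 took up in part in P635L hearts.

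A pair of minor Tpm1 junctions moved by very little in level, without overlap between P635L Ctr and WT Ctr. They were chosen after their values were seen, as those of Tpm1 with the smallest limma p. The p-values given for them are therefore not independent evidence of a change. The striated exon 9a (chr9:66936946-66937024) was skipped in favour of a direct join to 9b in 3.10, 3.08, 3.08 and 2.69 reads per 1000 inclusion reads in WT Ctr. In P635L Ctr this was 7.71, 6.84, 6.20 and 7.70, in P635L Tnpo3 3.25, 3.77, 3.60 and 4.70, and in WT Tnpo3 2.39, 2.32, 2.46 and 3.36. The inclusion level fell by only 0.0072 in P635L Ctr against WT Ctr, from 0.995 to 0.988 (edgeR adjusted p = 0.011, limma 0.000182, rMATS FDR 0.179 in the authors' deposited table, n = 4 per group), far under the difference of 0.1 needed for a call. Against P635L Ctr the P635L Tnpo3 libraries were lower without overlap (7.11 ± 0.74 against 3.83 ± 0.62 per 1000, SD, n = 4, exact permutation p = 0.0286), with an adjusted p of 0.0166 by limma and 0.318 by edgeR. Another listed event of the same exon did not show this. Its mean level was 0.9935 in WT Ctr, 0.9912 in P635L Ctr, 0.991 in P635L Tnpo3 and 0.992 in WT Tnpo3. The limma adjusted p of that event was 0.520 for P635L Ctr against WT Ctr and 0.957 between the viruses in P635L hearts. The smooth muscle exon 2a (chr9:66955406-66955531) had 2.04 ± 1.08 inclusion reads per 1000 skipping reads in WT Ctr, 4.66 ± 0.96 in P635L Ctr, 4.08 ± 0.70 in P635L Tnpo3 and 2.38 ± 0.53 in WT Tnpo3 (SD, n = 4). Its P635L Ctr and WT Ctr libraries did not overlap (exact permutation p = 0.0286). The adjusted p was 0.0198 by limma and 0.367 by edgeR, and the rMATS FDR was not under 0.05.

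**Figure D5:**
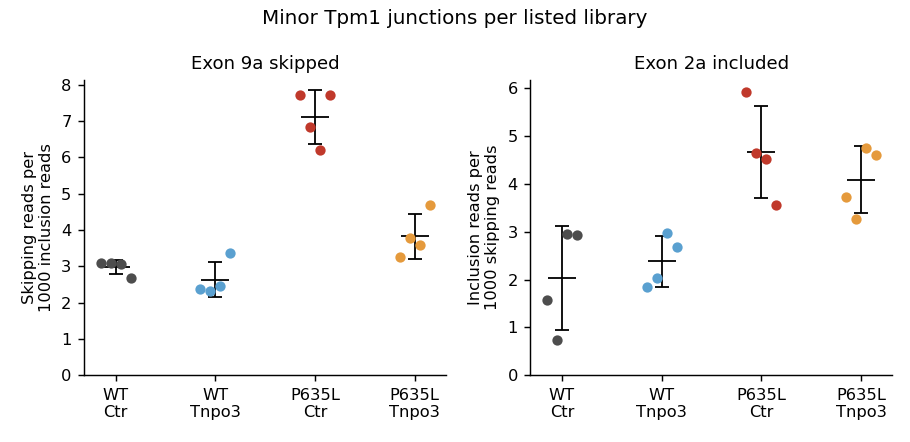
Minor Tpm1 junctions in the 4 groups (horizontal axes): left, reads that skip exon 9a per 1000 inclusion reads, right, reads that include exon 2a per 1000 skipping reads (vertical axes from 0). Points are listed libraries and bars the mean ± SD; exon 9a skipping is 7.11 in P635L Ctr and 2.99 in WT Ctr on average.

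Tpm3 and Tpm4 had no called event. Tpm3, like Tpm2, uses both versions of exon 6, and its event with the most reads was the pair 6a (chr3:89995708-89995783) and 6b. The share of 6a was 0.902, 0.792, 0.897 and 0.856 in WT Ctr and 0.895, 0.842, 0.850 and 0.854 in P635L Ctr, so the groups overlapped and their means, 0.862 and 0.860, differed by −0.0015 (exact permutation p = 0.914). The shift of Tpm2 at the homologous exon was thus not seen in Tpm3, whose difference lay within the spread of the mice. In WT Tnpo3 the share was 0.822, 0.795, 0.811 and 0.834 (rMATS FDR 0.0575 in the authors' deposited table, edgeR adjusted p = 0.999), and the skipped-exon event of Tpm3 exon 6a, chosen after its values were seen and read from part of the same junctions, went from 0.740 ± 0.098 to 0.632 ± 0.037 (SD, n = 4 each, exact permutation p = 0.114). Tpm4 had a single event, inclusion of its exon 7 (chr8:72900901-72900963), at 0.991 to 1.0 in all 16 libraries.

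Other parts of the thin filament moved in the same hearts. In P635L Ctr against WT Ctr, 2 of 22 thin filament genes rose and 4 fell by edgeR, where 14.2% of all genes were called. The median log2 fold change of the 22 was −0.01 beside −0.05 for all genes tested. Of the 4 that fell, Tnni3, cardiac troponin I, changed by −0.81 ± 0.13. Tnnc1, the troponin C of heart and slow muscle, changed by −0.85 ± 0.14. The others were Tnnt1, slow skeletal troponin T (−2.10 ± 0.17), and Tmod4, a tropomodulin that caps actin filaments (−1.39 ± 0.15). These are log2 fold changes ± SE (n = 4, edgeR adjusted p at most 0.000397). The 2 that rose are outside the rule for named genes and are not named. Between the viruses in P635L hearts 3 of the 22 rose and 3 fell, where 3.88% of all genes were called, with Tnnt1 at 1.27 ± 0.17, Tmod4 at 0.95 ± 0.15 and Tnnc1 at 0.52 ± 0.14 among those that rose (SE, edgeR adjusted p at most 0.0420). Those that fell were Nrap, Xirp1 and Cap2, at −0.78 ± 0.12, −0.72 ± 0.17 and −0.75 ± 0.19 (SE, edgeR adjusted p at most 0.0318); these 3 are outside the rule for named genes and were chosen after their values were seen. Among 18 tested regulators of splicing with known tropomyosin or muscle exons, 0 rose and 2 fell in P635L Ctr against WT Ctr, a share below the 14.2% of all genes called there. These were Rbfox1 (−1.19 ± 0.23, adjusted p = 0.00171) and Celf1 (−0.50 ± 0.11, adjusted p = 0.00435; SE, n = 4, edgeR). Rbfox1 was also lower in P635L Tnpo3 against WT Ctr (−0.96 ± 0.23, adjusted p = 0.0266).

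Markers of cells that could bring their own tropomyosin were read beside Tpm2. Of all genes tested, edgeR called 14.2% in P635L Ctr against WT Ctr and 3.88% between the viruses in P635L hearts. None of the 8 smooth muscle and pericyte markers was called in P635L Ctr against WT Ctr (edgeR), and their summed level was 746 to 905 CPM in P635L Ctr and 734 to 1008 CPM in WT Ctr. Of 8 skeletal muscle markers 4 were tested, and 2 rose while Mylpf (0.33 ± 0.25) and Actn3 (−0.07 ± 0.66) were not called; those that rose were the fast troponins Tnnt3 (3.30 ± 0.29, adjusted p = 4.67e-07) and Tnni2 (2.97 ± 0.28, adjusted p = 1.42e-06; log2, SE, n = 4, edgeR). The summed level of these markers was 4.93 to 6.22 CPM in WT Ctr, 3.28 to 5.73 in WT Tnpo3, 24.6 to 36.5 in P635L Ctr and 12.6 to 22.6 in P635L Tnpo3, and most of the P635L Ctr sum was Tnni2 and Tnnt3. The defining fast myosin Myh4 had at most 2 counts and was at 0 in 14 libraries, Tnnc2 had at most 1 count, and Myh1 and Myh2 had at most 14 and 9 counts in any library. Tnnt3 was 2.66, 2.44, 2.63 and 6.07 CPM in P635L Tnpo3, again highest in the fourth library, against 9.49 to 12.3 CPM in P635L Ctr (−1.65 ± 0.26, SE, edgeR adjusted p = 0.0013). Tnni2 was 17.0, 7.90, 16.3 and 13.3 CPM in P635L Tnpo3, not highest in that library, and was not called between the viruses (−0.40 ± 0.25, SE, edgeR adjusted p = 0.426). Fibroblast markers were higher in P635L Ctr for 7 of 8 genes (median log2 fold change 0.93), at a summed 1575 to 2385 CPM against 994 to 1644 CPM in WT Ctr, and were 1099 to 1773 CPM in P635L Tnpo3. Between the viruses in P635L hearts 5 of the 8 fibroblast markers fell. In the P635L Ctr comparison with WT Ctr, none of 6 endothelial markers and none of 2 tested atrium markers was called, while 1 of 6 macrophage markers fell. The part of these cells in the Tpm2 result was not tested.

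Over the 16 libraries, the genes whose log2 CPM followed Tpm2 most closely among 9438 were Rab34 (Pearson r = 0.964), Mmp23 (0.949) and Fam20a (0.948). For Tpm1 they were Cav3 (0.892), Cox18 (0.886) and Atg4b (0.880), for Tpm3 they included Actb (0.900) and Inpp5d (0.883), and for Tpm4 Tuba1a (0.874), Tbpl1 (0.852) and Ptma (0.797). These are descriptions over libraries that include the group differences.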

How the data were processed

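Poly(A) RNA of left ventricle tissue was sequenced as stranded libraries, per the labels' protocols. The authors' deposited count table gives unnormalized read counts by gene. STAR 2.7.9a, featureCounts 2.0.6, DESeq2 and the build GRCm39 are named per the submitters' processing notes; annotation, strand setting and rMATS version are not given in the sources used here. The deposited DESeq2 tables hold log2 fold changes, a score (the Wald statistic) and p-values, and the deposited rMATS tables hold junction reads, inclusion levels, p-values and an FDR.

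The 4 genes, the marker and gene lists and the tests were chosen with earlier results of these data known. The gene tests used edgeR 4.0.16 under R 4.3.3 (TMM factors, filterByExpr, quasi-likelihood test, 1 fit of 16 libraries with 12 residual degrees of freedom, 18662 genes, Benjamini-Hochberg adjustment). Log2 fold changes are edgeR's. CPM are scaled by TMM, and CPM per kb use the gene length of the count table. P635L Tnpo3 against P635L Ctr was tested with edgeR on inclusion and skipping reads with an effect per library, and with limma 3.58.1 (pseudocount 0.5) as an alternative; DESeq2 1.42.0 was the alternative for genes. Both kinds of fit were tested on simulated data, and the permutation test on fixed values with a known answer. Exact permutation tests are two-sided over 70 assignments. Named events are those called in a comparison or, for a gene with none, the event with the most reads; Tpm1 exons 2a, 6a and 9a and the skipped-exon event of Tpm3 exon 6a were added after their values were seen. Named list genes are the up to 4 with the smallest p among those called. Labels say 4 mice per group, so the spread is between mice. Exons of Tpm1, Tpm3 and Tpm4 were named by matching deposited exons to GENCODE M21 at a constant shift. 1 gene that followed Tpm3 is not reported here.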

Additional observations from a re-analysis of the deposited data

Results flagged for a closer look

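Over 104 groups of 4 values compared, 7 were flagged, and chance flags about 1 in 20 when the gap between the extreme library and the next is held against Dixon's limit for 4 values. In the Tpm2 exon 6 events, 1 library stood apart in the WT groups: 0.849 in WT Tnpo3 for the share of 6a (the others 0.957 to 0.976), 0.073 in WT Ctr for 6b inclusion (the others 0.005 to 0.016) and 0.104 in WT Tnpo3 for 6b inclusion (the others 0.014 to 0.023). For the Tpm2 exon 9a level in P635L Ctr, 1 library stood at 0.808 above the other 3 at 0.689 to 0.696. The 9a form was at 4.35 RPM (junction reads per 1000000 listed) in 1 WT Tnpo3 library and 0.705 to 1.32 in the other 3. Skipping of Tpm1 exon 9a was at 2.69 per 1000 in 1 WT Ctr library (the others 3.08 to 3.10) and at 3.36 in 1 WT Tnpo3 library (the others 2.32 to 2.46).

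The effect of the Tnpo3 virus differed between P635L and WT hearts by edgeR's interaction test for 5 of the named genes that are not tropomyosins. On the log2 scale the difference was 1.49 for Tnnt1, 1.16 for Tmod4 and 1.11 for Myl3, the ventricular myosin light chain. It was −0.91 for Pdgfra and −1.26 for Lum, both fibroblast markers. No tropomyosin gene or event passed this test.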

How the results depend on the processing

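The counts of called events were the same in all 55 values under alternatives. In comparisons with WT Ctr, leaving out 1 library kept the rMATS FDR of the full comparison. Only the inclusion difference and the read mean were computed again, so these values could not change the FDR. Inclusion differences moved by no more than the SD between libraries in 160 values, from summed reads for the named events and from leaving out 1 library for the 4 called Tpm2 events. In WT Tnpo3 against WT Ctr, where these 4 differences were near 0, their sign changed: leaving out 1 library gave −0.0363 to 0.0351 for 6a before 6b, −0.0359 to 0.0175 for the pair, −0.0075 to 0.0298 for 6b and −0.0298 to 0.0219 for 9a. Of the 4 genes, 1 was called in P635L Ctr against WT Ctr, and 2 were called with DESeq2, with upper-quartile factors, without the libraries rich in ENSMUSG00000119584 and without those with Xist above Y-linked genes; leaving out each library gave 1 to 2. In P635L Tnpo3 against P635L Ctr the count went from 0 to 1 when only the groups compared were fitted, and ran from 0 to 1 over the leave-one-out fits. In P635L Tnpo3 against WT Ctr it went from 2 to 1 when only the groups compared were fitted and to 1 without the libraries rich in ENSMUSG00000119584, and ran from 1 to 2 over the leave-one-out fits. In the other 2 comparisons it was 0 throughout. The upper-quartile factors and the fit without libraries with Xist above Y-linked genes were chosen after seeing the data. The causes were not tested.

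Values that changed sign were all small. Without the libraries rich in ENSMUSG00000119584, the log2 fold change in WT Tnpo3 against WT Ctr was −0.17 for Tpm3 and −0.0080 for Tpm4, that in P635L Tnpo3 against WT Ctr −0.0165 for Tpm3 and −0.0766 for Tpm4, and the interaction −0.0013 for Tpm1. Without the libraries with Xist above Y-linked genes it was −0.0134 for Tpm3 in WT Tnpo3 against WT Ctr and −0.0622 for Tpm4 in P635L Tnpo3 against WT Ctr. The interaction was −0.0189 for Tpm1 and −0.0328 for Tpm4 with no low-count filter, and for Tpm4 −0.0116 with median-ratio factors and −0.0137 with DESeq2. Leaving out 1 library at a time, Tpm4 ran from −0.16 to 0.0066 in P635L Ctr against WT Ctr, from −0.0443 to 0.12 in WT Tnpo3 against WT Ctr, from −0.0041 to 0.14 in P635L Tnpo3 against P635L Ctr, from −0.10 to 0.0841 in P635L Tnpo3 against WT Ctr and from −0.0633 to 0.10 in the interaction. In WT Tnpo3 against WT Ctr, Tpm2 ran from −0.0238 to 0.32 and Tpm3 from −0.0607 to 0.14, and the interaction of Tpm1 ran from −0.0671 to 0.12.

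With the replicate number as a block, the calls of the 4 genes stayed at 1, 0, 0 and 2 in the pairwise comparisons and 0 in the interaction, and the interaction of Tpm4 was −0.0009. Whether equal numbers mark paired libraries could not be settled. Deviations from the group means correlated at −0.454 to 0.702 over 24 same-numbered pairs (median −0.063). Over 72 others they correlated at −0.485 to 0.486 (median 0.046), and 8 of 16 libraries correlated best with their own number. No paired analysis was possible for splicing because the rMATS tables do not state the order of libraries.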
